A study of Homo sapiens with 15 samples.

Results

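In 786-O cells depleted of BMAL1, 393 of the 1089 HIF2α peaks overlapped no HIF2α peak of control cells by even 1 bp, which is 36.1% of the list (95% Wilson interval 33.3% to 39.0%). These 393 regions, termed shBMAL1-only peaks here, are described below. They are 393 of the 4873 peaks in the 4 deposited lists. They were chosen by the peak calls of both HIF2α lists, that is by measured values, and their strength, width and distance to control peaks are therefore given as descriptions without a test. A pair of classes of HIF2α peak is set beside them. Shared peaks are the other 696 peaks of the shBMAL1 list, each of which overlapped a control HIF2α peak. Lost peaks are the 509 of 1204 control HIF2α peaks that overlapped no HIF2α peak of shBMAL1 cells.

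The cells are 786-O, an established line of clear cell renal cell carcinoma that lacks functional VHL and therefore keeps HIF2α stable in normal oxygen. They expressed a lentiviral shRNA with a control sequence (shControl) or one shRNA against BMAL1 (shBMAL1), and were otherwise labelled wild type. Binding was profiled by CUT&RUN, in which an antibody directs a nuclease to chromatin and the released DNA is sequenced, with rabbit antibodies to HIF2α, BMAL1 or an IgG isotype. The 15 libraries comprise 3 for HIF2α in each cell population, 3 for BMAL1 in shControl cells, 2 for BMAL1 in shBMAL1 cells, and 2 for IgG in each population. Each HIF2α and BMAL1 group is represented by 1 pooled peak list (1204 and 1089 HIF2α peaks, and 1812 and 768 BMAL1 peaks, in shControl and shBMAL1 cells), and the IgG libraries carried no list. The lists have no error between libraries and no read counts, so a region outside a list may hold signal below the threshold, and all intervals cover counting error over peaks only. The shRNA lowers BMAL1 without removing the gene, and peak lists hold no expression values against which the cell type could be checked.

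HIF2α, encoded by EPAS1, is a bHLH-PAS transcription factor that pairs with ARNT and binds hypoxia response elements, and in VHL-deficient kidney cancer it drives genes of glycolysis, angiogenesis and growth. BMAL1 is the bHLH-PAS partner of CLOCK and binds E-boxes in the promoters of circadian genes such as the PER and CRY repressors. The E-box contains the core of the hypoxia response element, and the study asked how depletion of BMAL1 alters where HIF2α sits. The study also described HIF2α peaks called only in depleted cells. Its visual inspection and motif analyses did not support a widespread move of HIF2α to new loci.

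The sequences below are the 120 bp around the summits of 6 shBMAL1-only peaks, and they show how differently such peaks can be built. Apart from the PCGF3-AS1 peak, each is the strongest with an HRE core, an AP-1 site, a promoter position, a control BMAL1 peak or a shBMAL1 BMAL1 peak. The PCGF3-AS1 peak (rank 333) holds an E-box. Among members with an E-box, only a TRIO peak that is not printed (rank 279) was stronger. They are from the hg19 assembly, plus strand, 5′ to 3′. Capitals mark the HRE core (ACGTG or GCGTG), the E-box (CACGTG), the AP-1 site (TGACTCA or TGAGTCA) and the GC box (GGGCGG) on either strand, so that an HRE core on the minus strand reads CACGT or CACGC. The THRB intron is the strongest member and holds an HRE core, the MAF region joins an AP-1 site to an HRE core, and the PCGF3-AS1 promoter has an E-box and a GC box. The TRIO intron also carried BMAL1 in both BMAL1 lists. The last 2 hold none of these motifs. They are the strongest promoter member, at MTND6P16 and within MTCYBP16, a pseudogene of mitochondrial cytochrome b, and the strongest member with a control BMAL1 peak, in a U2 small nuclear RNA pseudogene within BTRC.
THRB intron, chr3:24296261-24296380: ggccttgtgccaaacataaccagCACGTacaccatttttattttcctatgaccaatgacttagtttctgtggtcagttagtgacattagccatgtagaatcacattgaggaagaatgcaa
Intergenic, MAF nearest, chr16:79518264-79518383: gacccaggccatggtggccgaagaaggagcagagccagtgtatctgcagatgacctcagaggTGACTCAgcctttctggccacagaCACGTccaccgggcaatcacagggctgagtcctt
PCGF3-AS1 promoter, CPLX1 nearest, chr4:775651-775770: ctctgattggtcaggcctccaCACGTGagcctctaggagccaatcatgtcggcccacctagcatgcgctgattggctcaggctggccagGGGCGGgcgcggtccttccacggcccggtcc
TRIO intron, chr5:14268604-14268723: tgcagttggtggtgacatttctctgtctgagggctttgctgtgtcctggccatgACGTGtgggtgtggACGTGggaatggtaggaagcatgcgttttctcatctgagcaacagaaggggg
MTCYBP16 pseudogene, TECRL nearest, chr4:65473903-65474022: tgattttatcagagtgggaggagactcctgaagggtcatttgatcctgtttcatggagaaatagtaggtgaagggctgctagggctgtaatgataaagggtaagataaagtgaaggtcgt
BTRC intron with RNU2-59P, chr10:103124610-103124729: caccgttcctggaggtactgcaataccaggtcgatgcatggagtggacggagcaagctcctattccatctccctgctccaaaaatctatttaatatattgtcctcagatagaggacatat

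The shBMAL1-only peaks were mostly weak peaks of their own list. Peaks were ranked by the −log10 p that MACS2 gives each peak, with rank 1 the strongest of 1089. The best-placed member stood at rank 108 and the median member at rank 764, while the median shared peak stood at rank 388. Members made up 1 of the 109 strongest peaks (0.917%), 37 of the 109 peaks of ranks 437 to 545 (33.9%) and 70 of the 109 weakest (64.2%). The share of members increased at every step down the ranking, as the plot of members by rank shows. Their median fold enrichment over local background was 6.89 (range 2.02 to 17.9), against 7.88 for shared and 6.09 for lost peaks. The median −log10 p was 15.4 for members, 22.8 for shared and 16.0 for lost peaks, and the largest value was 47.8, 459 and 108 in the same order. Members were narrow, with a median width of 176 bp against 247 bp for shared and 180 bp for lost peaks. In median −log10 p and width members thus stood near the lost peaks, and in median fold between the lost and the shared peaks. Lost peaks come from the control list, whose folds have no common scale with these.

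**Figure D1:**
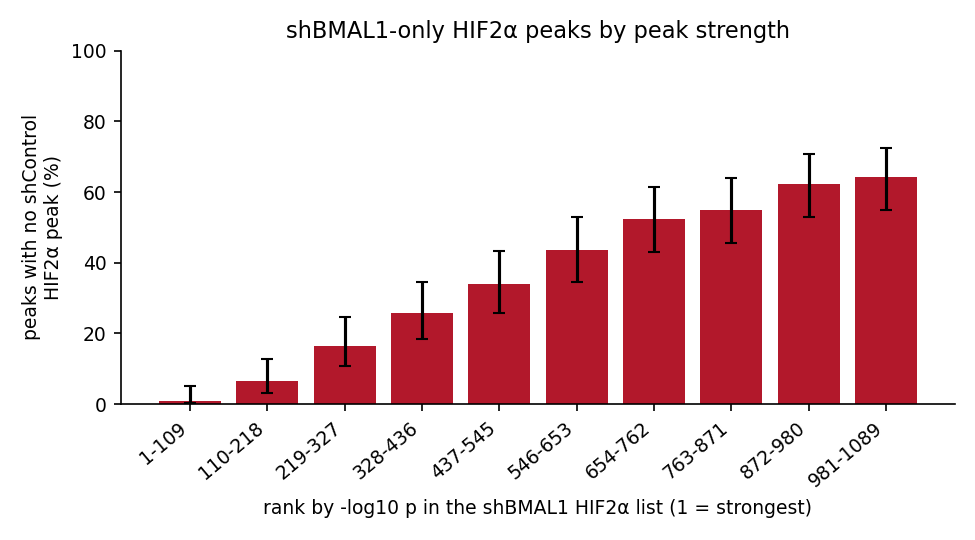
Share of the peaks of the shBMAL1 HIF2α list that had no shControl HIF2α peak, in 10 bins of rank on −log10 p (x axis, ranks from strongest to weakest, y axis, percent). Bars are shares of 108 or 109 peaks with 95% Wilson intervals, and they go from 0.917% in the strongest bin to 64.2% in the weakest.

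Most members lay far from any control HIF2α peak. The median gap between peak edges was 373958 bp, the quartiles were 54313 and 1267916 bp, and the widest gap was 13063685 bp, at ENSG00000272297 on chromosome 4. Only 6 members (1.53%) had a control peak within 1000 bp, 47 (12%) within 10000 bp and 119 (30.3%) within 100000 bp. The same distances for lost peaks, measured to the shBMAL1 list, gave a median of 370466 bp, with 55 of 509 (10.8%) within 10000 bp and 146 (28.7%) within 100000 bp. The 2 distributions run close together in the plot of distances. The nearest members lay at PDE10A, a cyclic nucleotide phosphodiesterase (403 bp), at WFIKKN1 and RAB40C (476 bp) and at DDIT4, a hypoxia-induced inhibitor of mTORC1 (510 bp). On the other side of the rule, the shBMAL1 peaks that were just excluded overlapped a control peak by 18 bp near LGALSL, 36 bp near TBXAS1 and 56 bp near SCD, which were named after their values were seen. Of the 393 nearest control peaks, 166 (42.2%) were lost ones, and 42.3% of all control HIF2α peaks were lost.

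**Figure D2:**
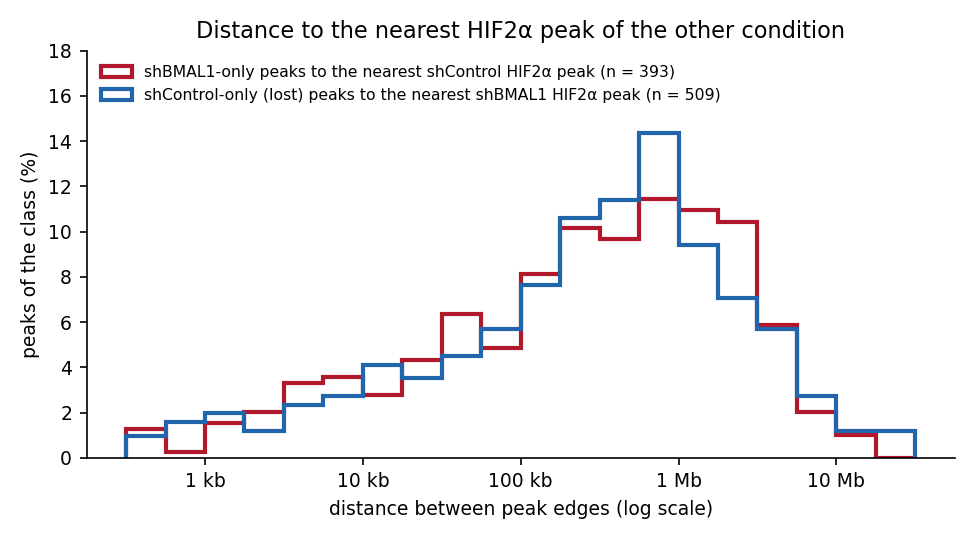
Distance between peak edges from each shBMAL1-only peak to the nearest shControl HIF2α peak (red, n = 393), and from each lost peak to the nearest shBMAL1 HIF2α peak (blue, n = 509), on a log x axis. Lines are the percent of each class per bin, and the medians are 373958 and 370466 bp.

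The 12 strongest members had little in common by gene. The peak with the smallest p lay in an intron of THRB, a thyroid hormone receptor, at chr3:24296213-24296487, with a fold enrichment of 17.9 and a −log10 p of 47.8. The nearest control HIF2α peak was 1212517 bp away. Next came the MTCYBP16 pseudogene on chromosome 4 (fold 7.97, −log10 p 41.5), an intron of STK32A-AS1 (5.52 and 35.0) and an intron of CD70, a TNF-family ligand that is highly expressed in clear cell renal carcinoma (13.6 and 34.5). An intergenic region near LYZL1 had a fold enrichment of 11.5, and the promoter of C1GALT1, which builds the core 1 O-glycan, had 11.7. The BTRC peak, in a gene for an F-box protein that marks PER proteins for degradation, had a low fold of 4.78 with a −log10 p of 31.5. The remaining 5 lay near DNAH5 (fold 8.74), at the promoter of HSPA2, a heat shock protein of the HSP70 family (11.3), in ERGIC1 (8.56), in PTPRR (12.6) and near KLF6, a zinc finger transcription factor (9.95). Of these 12 peaks, 9 held an HRE core and 3 lay in promoters.

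Some members lie in sequence that the genome holds more than once. The 200 bp around the summit had at least 1 further copy (90% identity over 80% of its length) in 30 of 393 members (7.63%), in 8.91% of shared and in 7.86% of lost peaks. More than 10 copies were found for 10 members (2.54%). Among the 12 strongest members, 4 had several copies: the regions at STK32A-AS1 (35 copies), CD70 (5), LYZL1 (78) and RNU2-59P in BTRC (6). Reads from such copies can be assigned to more than 1 place, and the part of this in their peak calls was not tested.

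The share of members in promoters did not differ detectably from that of the other HIF2α peaks. Promoters, taken as 1000 bp before to 100 bp after the start of any annotated transcript, held 104 of 393 members (26.5%, 22.3% to 31.0%), while 4.2% of the genome lies in promoters so defined. The promoter share was 24.4% for shared peaks (difference 2.04 percentage points, 95% interval −3.26 to 7.53, adjusted p = 0.592, Fisher's exact test on counts of peaks, two-sided, Benjamini-Hochberg over 14 tests) and 30.6% for lost peaks (difference −4.19, −10.0 to 1.79, adjusted p = 0.34). Neither difference passed the test. Introns held 174 members (44.3%), intergenic sequence 92 (23.4%), non-coding exons 11, UTRs 9 and coding exons 3. The median distance from summit to the nearest protein-coding start site was 13203 bp, and 101 members lay more than 50000 bp from one. The strongest promoter members beyond those named above were at TRIM5, an antiviral restriction factor (fold 10.8), and at PCGF3-AS1 (5.34). The promoters of NUP58, a nuclear pore protein (6.89), and NAP1L1, a histone chaperone (8.0), held members at 11487603 and 10548265 bp from any control HIF2α peak.

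The members overlapped BMAL1 peaks of control cells less often than other HIF2α peaks did. In shControl cells, 63 of 393 members (16.0%) overlapped a BMAL1 peak, where 24.2% of all 1089 HIF2α peaks of shBMAL1 cells did. The share was 28.9% for shared peaks (difference −12.8 percentage points, −17.6 to −7.73, adjusted p = 2.16e-05, Fisher's exact test) and 26.1% for lost peaks (difference −10.1, −15.3 to −4.73, adjusted p = 0.00115). Members were thus less often at control BMAL1 sites than either class. By the rule, shared and lost peaks both have a HIF2α call in control cells and members have none. The BMAL1 list used here is of those same control cells. The part of the rule in these differences cannot be told apart from a trait of the members. Within 5 bins of peak rank the difference from shared peaks was −10.7 points. Outside promoters, 11.1% of members, 27.9% of shared and 22.7% of lost peaks overlapped a control BMAL1 peak. In promoters the shares were 29.8%, 31.8% and 34.0%, and whether the difference depends on position was not tested.

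In shBMAL1 cells, where the BMAL1 list is shorter and pooled from 2 libraries, 33 members (8.4%) overlapped a BMAL1 peak, beside 9.0% of all HIF2α peaks of these cells. The share did not differ detectably from that of shared peaks (9.34%, difference −0.942, −4.3 to 2.77, adjusted p = 0.711, Fisher's exact test). It was higher than that of lost peaks (3.54%, difference 4.86, 1.78 to 8.27, adjusted p = 0.00733, Fisher's exact test), and with only peaks of −log10 q of at least 10 this difference was 3.16 and did not pass (adjusted p = 0.137). Members and the shBMAL1 BMAL1 list come from the same cells, as do lost peaks and the shControl BMAL1 list, and a difference between cell populations common to both antibodies cannot be told apart from one that concerns the members. Of the 66 members with BMAL1 in either list, 30 overlapped both lists, 33 the control list alone and 3 the shBMAL1 list alone. The other 327 (83.2%) had no BMAL1 peak.

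**Figure D3:**
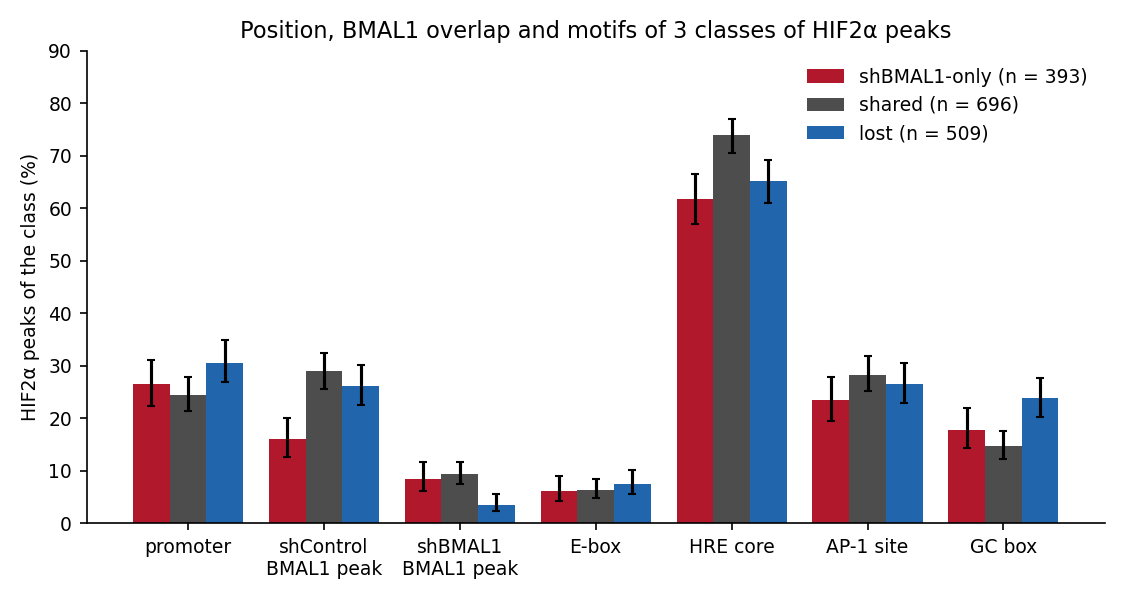
Share of HIF2α peaks in promoters, overlapping a BMAL1 peak of either cell population, or with a motif in the 200 bp around the summit, for shBMAL1-only (red, n = 393), shared (grey, n = 696) and lost peaks (blue, n = 509), with 95% Wilson intervals. Control BMAL1 overlap is 16.0% for shBMAL1-only peaks against 28.9% and 26.1%, and the HRE core is in 61.8% against 73.9% and 65.2%.

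The members that overlapped BMAL1 had a lower HIF2α enrichment than the rest, with a median fold of 5.37 for the 66 with a BMAL1 peak in either list and 7.1 for the 327 without. At the 63 members with a control BMAL1 peak, the median BMAL1 fold was 6.95 (3.47 to 34.3) and the median HIF2α fold 5.34. At the 33 with a shBMAL1 BMAL1 peak the medians were 9.7 (5.05 to 58.4) and 5.05. BMAL1 and HIF2α folds are of separate lists and have no common scale. The 66 members with BMAL1 were rich in promoter features: 33 lay in promoters (against 21.7% of the 327 without BMAL1), 13 held an E-box (19.7% against 3.36%) and 32 a GC box (48.5% against 11.6%), while the HRE core was in 63.6% and 61.5%. The median summit distance between HIF2α and control BMAL1 was 73 bp at members, 33 bp at shared and 42 bp at lost peaks.

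TRIO, which encodes a guanine nucleotide exchange factor for RAC1 and RHOA, held 2 of the strongest members that overlapped BMAL1. BMAL1 folds of the shControl and shBMAL1 lists, which were pooled from 3 and 2 libraries and have no common scale, are given side by side here without comparison. The introns of TRIO held 3 members, at chr5:14190656-14190807 (fold 5.57), chr5:14264813-14264984 (10.5) and chr5:14268477-14268816 (7.53). The latter 2 overlapped BMAL1 peaks in both cell populations, with BMAL1 folds of 6.79 and 7.12 at the first and 7.67 and 9.7 at the second, in shControl and shBMAL1 cells. The summits lay 8 and 33 bp apart at the first and 17 and 13 bp apart at the second. The gene also held a lost HIF2α peak at chr5:14305246-14305478 (control fold 6.25) and a shared one at chr5:14406739-14407024 (fold 6.22 in shBMAL1 and 10.1 in shControl cells), so that all 3 classes occur in 1 gene. Other strong members at BMAL1 sites were in an intron of PRSS36 (HIF2α fold 6.39, BMAL1 fold 14.7 in shControl and 26.9 in shBMAL1 cells), at PCGF3-AS1 (5.34, 4.45 and 6.88), at the shared promoter of EOLA1 and ENSG00000241489 (7.25, 14.1 and 32.9, with the HIF2α summit 1061 bp from the control BMAL1 summit) and near LINGO3 (7.66, 5.73 and 8.27). Members in an ERBB4 intron (HIF2α fold 9.48) and at the CARD10 promoter (7.79) overlapped a BMAL1 peak of shBMAL1 cells (BMAL1 fold 5.72 and 7.5) and none of control cells.

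The HRE core was the commonest motif at members. Motifs were counted on both strands of the 200 bp around each summit, and an E-box always contains an HRE core. An HRE core was present in 243 of 393 members (61.8%, 56.9% to 66.5%), in 69.5% of all 1089 windows and in 22.1% of the members' own flanks 2000 bp away. Members held it less often than shared peaks (73.9%, difference −12, −17.8 to −6.25, adjusted p = 0.000353, Fisher's exact test), and the difference from lost peaks did not pass (65.2%, −3.39, −9.72 to 2.91, adjusted p = 0.44). Within 5 bins of rank the difference from shared peaks was −9.26, and among peaks of −log10 q of at least 10 it was −6.64 and no longer passed (adjusted p = 0.137, Fisher's exact test). Within the members the share went with strength: 71.8% of the 131 strongest by rank, 66.4% of the next 131 and 47.3% of the 131 weakest held an HRE core. Several cores in 1 window were found in 88 members (22.4%) and in 31.9% of shared peaks.

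The AP-1 site, bound by FOS and JUN dimers, was in 92 members (23.4%), in 26.5% of all 1089 windows and in 3.82% of members' flanks. With windows of 100 and 400 bp it was in 48 and 159 members. The difference was −4.89 from shared peaks (−10.1 to 0.583, adjusted p = 0.202) and −3.11 from lost peaks (−8.71 to 2.63, adjusted p = 0.44, both by Fisher's exact test). The difference from shared peaks was −7.57 and passed within 5 bins of rank (Cochran-Mantel-Haenszel test in place of the exact test, adjusted p = 0.0466), and it was 1.12 and did not pass with only peaks of −log10 q of at least 10. An HRE core and an AP-1 site stood together in 53 members (13.5%), and 111 (28.2%) had neither, against 20.5% and 18.4% of shared peaks. AP-1 sites were in 11.5% of promoter members and 27.7% of the others. The motif profile shows both motifs concentrated within 150 bp of the midpoint in all 3 classes, at similar places.

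**Figure D4:**
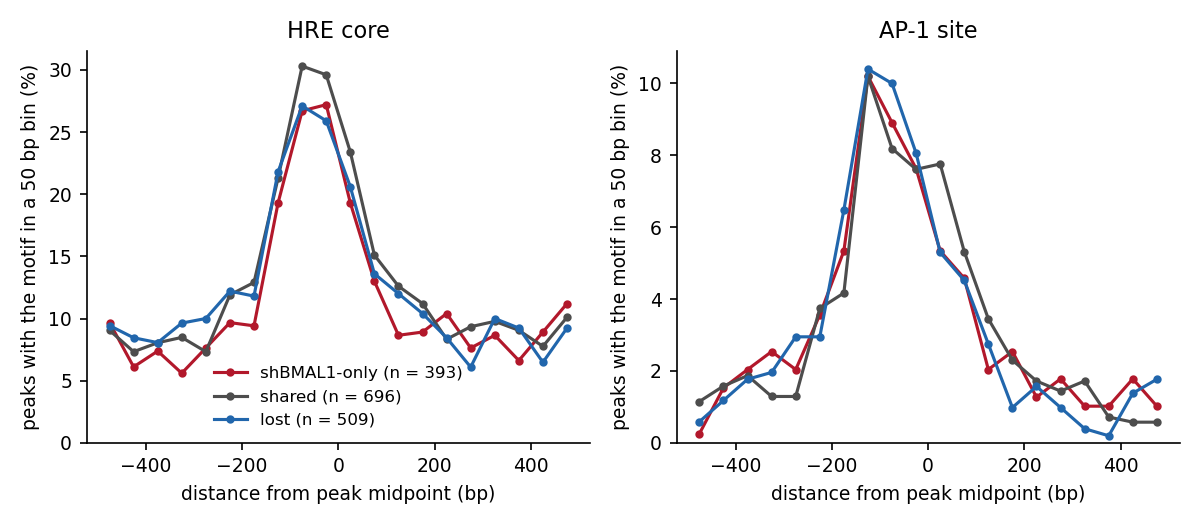
Percent of peaks with an HRE core (left) or an AP-1 site (right) starting in each 50 bp bin, by distance from the peak midpoint in bp, for shBMAL1-only (red), shared (grey) and lost peaks (blue). For shBMAL1-only peaks the HRE core reaches 27.2% and the AP-1 site 10.2% in their highest bins.

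The E-box itself was rare. It was in 24 members (6.11%), in 6.24% of all 1089 windows and in 2.67% of members' flanks, and the differences from shared peaks (−0.215, −3.06 to 3.02, adjusted p = 1.0) and lost peaks (−1.36, −4.63 to 2.09, adjusted p = 0.592) did not pass Fisher's exact test. Of promoter members 12.5% held an E-box and of the others 3.81%. The strongest members with an E-box were in TRIO and at PCGF3-AS1, then near SOX1, a neural transcription factor (fold 9.35), near PAX2 (8.28) and at the promoter of EIF4A3, a core protein of the exon junction complex (6.9). The GC box, bound by SP-family factors, was in 70 members (17.8%), in 15.8% of all windows and in 6.87% of flanks. It differed from shared peaks by 3.16 points (−1.31 to 7.91, adjusted p = 0.34) and from lost peaks by −5.96 (−11.2 to −0.583, adjusted p = 0.0913), neither passing Fisher's exact test. The CCAAT box was as frequent in members (21.9%) as in their flanks (23.5%).

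A smaller share of members than of shared peaks lay at known HIF targets, a difference that was not tested. A gene was counted as having a peak where it had the nearest protein-coding start site or held the summit in its body. Of 53 hypoxia genes, 7 had a member, 30 a shared and 10 a lost peak, and the 9 members concerned were 2.29% of all members, while 50 shared peaks (7.18%) and 10 lost peaks (1.96%) lay at these genes. Among the 7 genes, 6 also held a shared peak, so the member was an additional call beside a common one. At DDIT4 the member lay in the promoter (chr10:74032796-74033052, fold 5.39), 510 bp from a shared peak of fold 9.91 in shBMAL1 and 5.06 in shControl cells. PFKFB3, which makes the activator of glycolytic phosphofructokinase, was the gene nearest to a member (fold 9.46) that lay 619 bp from a control peak of fold 9.09. That member was 76084 bp downstream of the PFKFB3 start site, beyond the gene and in an intron of LINC02649. The MET receptor gene had a member at its promoter (chr7:116312207-116312388, fold 5.13), with an E-box and a control BMAL1 peak (fold 7.46), and 1 in an intron (4.9), beside a shared intronic peak of fold 11.8. Members also lay in introns of EGLN3, a HIF prolyl hydroxylase (7.21), of LOXL2, a lysyl oxidase (7.76 and 6.9), and of P4HA2, a collagen prolyl hydroxylase (8.82). The LOXL2 member of fold 7.76 had the start site of R3HCC1 nearest (9995 bp, and 19034 bp for LOXL2). The P4HA2 member also lay within PDLIM4, whose start site was nearer (2733 bp, and 13418 bp for P4HA2). EGLN1, the main oxygen-sensing prolyl hydroxylase of HIF, had a member alone, at its promoter (chr1:231557819-231557999, fold 4.26, rank 1028 of 1089).

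Peaks at 25 clock genes were 0.763% of members, 1.01% of shared and 0.589% of lost peaks. Of these genes, 3 had a member, 4 a shared and 2 a lost peak. The 3 were BTRC, NFIL3, a repressor of clock output (fold 6.94, 112618 bp from its start site), and TEF, an activator of clock output (8.78, 21233 bp from its start site), and none of them held another HIF2α peak. TEF carried BMAL1 peaks elsewhere, with a fold of 16.2 in shControl and 3.64 in shBMAL1 cells. Of 16 bHLH-PAS genes, AHRR, the repressor of the aryl hydrocarbon receptor, had a member in an intron (4.97, a sequence of 46 copies), and EPAS1, the HIF2α gene, had 1 lying 60546 bp upstream (5.33, rank 1063) beside 11 shared peaks. Those 11 hold ranks between 2 and 13 of the shBMAL1 list and overlap the 10 strongest BMAL1 peaks of shControl cells (folds of 98.9 to 189). All 11 start at the same base in both HIF2α lists, and the 10 BMAL1 peaks start at 10 of those bases. Whether these peaks reflect binding was not tested. The member overlaps no BMAL1 peak. In each class 2 of the 16 genes had a peak, and peaks at them were 0.509% of members, 3.16% of shared and 0.786% of lost peaks. The 22 shared peaks among these all lay in EPAS1 or ARNT. Without peaks in these 2 genes the shBMAL1 HIF2α list held 1067 peaks, 393 of them members. Of 17 AP-1 genes 1 had a member, 3 a shared and 1 a lost peak, and the member lay 148993 bp from the start site of JUN (8.29). Peaks at AP-1 genes were 0.254% of members, 0.718% of shared and 0.196% of lost peaks.

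Kidney and matrix genes had peaks of all 3 classes. Of 31 kidney identity genes (30 of them in the annotation), 3 had a member, 5 a shared and 2 a lost peak. Peaks at these genes were 0.763% of members, 0.718% of shared and 0.589% of lost peaks. The member 4071 bp upstream of PAX2, a nephron transcription factor (8.28), held an E-box and no BMAL1 peak, that near CDH6, a cadherin of the renal tubule (5.62), overlapped a control BMAL1 peak of fold 13.1, and that in CUBN, the endocytic receptor cubilin (5.1), lay 38941 bp from a control HIF2α peak. Peaks at 55 genes of the matrix, TGF-beta and YAP pathways were 1.78% of members, 2.01% of shared and 1.77% of lost peaks. Of these genes, 7 had a member, 11 a shared and 9 a lost peak. The 7 were the ligands TGFB1 (8.42) and TGFB2 (10.2), the signal transducer SMAD3 (5.02), the target TGFBI (6.45), the adhesion receptors CD44 (6.69) and ITGA3 (6.27), and the collagen gene COL5A1 (6.95). The TGFB1 member was intronic, with the start site of CCDC97 nearest. The members of TGFB2, CD44, ITGA3 and COL5A1 were intergenic, at 224940, 26936, 28035 and 38976 bp from the start site. That of TGFBI lay in the promoter of a transcript that starts inside the gene. CD44, ITGA3 and TGFB1 had no other HIF2α peak. Over the 6 lists 25 members were found, 5 of them in promoters, 4 with a control BMAL1 peak and 0 with a shBMAL1 BMAL1 peak. Over all 393 members these shares were 26.5%, 16.0% and 8.4%. The promoter at the JUN member is that of LINC01358. No test was run on the lists.

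Members seldom gathered at 1 gene. They were assigned to 385 nearest or host genes, of which 353 had 1 member, 27 had 2 and 5 had 3, and 346 of the members had no other within 50000 bp. At 265 members (67.4%) the gene held no control HIF2α peak at all. At 91 (23.2%) it held a shared one, and at 37 (9.41%) it held a lost peak and no shared one, so that peaks were called in both populations at different positions. UACA, an apoptosis regulator, and ZMIZ1, a transcriptional coactivator, each had 3 members and 1 lost peak. At UACA the members had folds of 7.91, 5.57 and 7.28 and the lost peak 5.55, and the closest member lay 5908 bp from the lost peak. All 3 UACA members were intergenic, at 186659, 175044 and 25424 bp from its start site. At ZMIZ1 the members had folds of 5.02, 6.03 and 5.58 and the lost peak 6.27. The first 2 lay 96298 and 95507 bp upstream of its start site and overlapped 1 and the same control BMAL1 peak. The third lay in an intron and overlapped another control BMAL1 peak. The genes AKR1E2 (members of fold 7.73, 8.54 and 9.39) and CMIP (7.58, 6.81 and 8.47) kept shared peaks beside their members, and TRIO was the fifth gene with 3. The AKR1E2 members lay 123314, 82215 and 60298 bp upstream of its start site.

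The members were spread over all chromosomes. Chromosome 10 held 35 members and 21 lost peaks (8.91% of members, 4.13% of lost peaks), chromosome 12 held 17 and 7, and chromosome 22 held 18 and 11. Chromosome 1 held 33 members and 58 lost peaks, chromosome 3 held 16 and 38, and chromosome 21 held 6 and 17. As a share of the shBMAL1 HIF2α list on the chromosome, members were 43.2% on chromosome 10, 62.9% on chromosome 19 and 25.4% on chromosome 3, against 36.1% of the whole list. On chromosome 21, which had fewer members than lost peaks, this share was 66.7% (35.4% to 87.9%), from 6 members and 3 shared peaks. These counts were looked at after the data were seen and have no test.

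**Figure D5:**
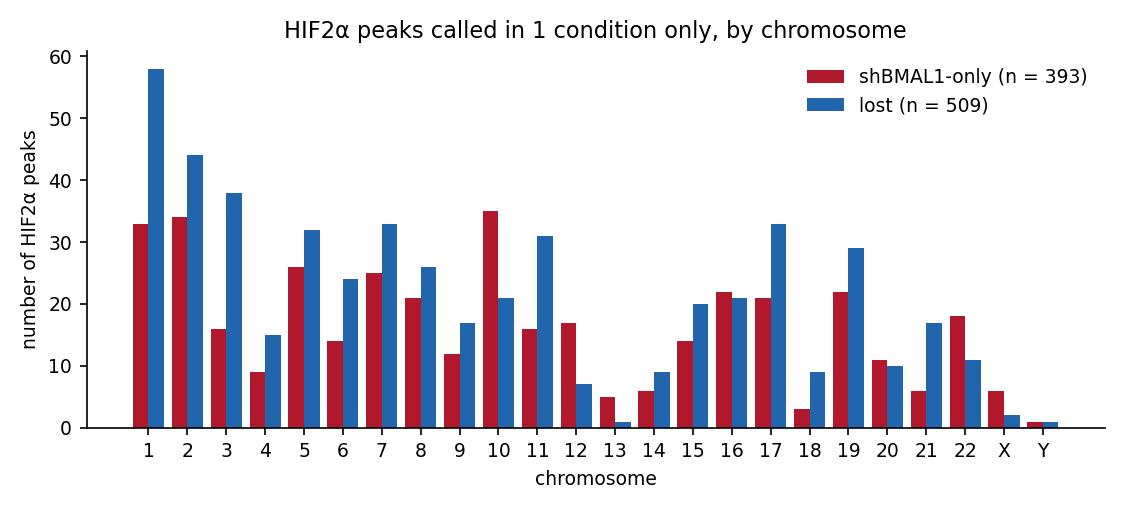
Number of shBMAL1-only (red, n = 393) and lost HIF2α peaks (blue, n = 509) on each chromosome. Chromosomes 10, 12 and 22 hold more shBMAL1-only than lost peaks (35 and 21, 17 and 7, 18 and 11), and chromosomes 1 and 3 fewer (33 and 58, 16 and 38).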

How the data were processed

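Paired reads were mapped by the authors to hg19 using Bowtie2 2.5.3, and they removed duplicates, called peaks with MACS2 2.2.9.1, removed blacklisted regions with bedtools 2.31.1 and deposited 1 pooled list per antibody and cell population. Each list gives, as deposited by the authors, a display score, a fold enrichment (a ratio to local background), a −log10 p and a −log10 q per peak. The smallest −log10 q was between 5.02 and 5.14 in the 4 lists. How the IgG libraries entered peak calling is not given in the sources used here. The labels and the study's statistics section call the libraries of a group biological replicates, while its reporting form calls them technical. The study states 1 common read depth for all libraries kept. The lists carry no read counts, so p-values compare peaks of pooled lists and hold no spread between cultures.

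Overlap of 2 peaks meant 1 shared bp or more, computed with Python 3.11.15, pandas 2.3.3 and SciPy 1.17.1. Each peak was placed by its midpoint in GENCODE 44 annotation lifted to GRCh37, whose coordinates equal hg19, and its gene by its summit. Motifs were counted in 200 bp around summits, and flanks were 200 bp windows 2000 bp to each side. Copies were found with blastn 2.17.0. Between classes, shares were tested with Fisher's exact test (two-sided, peaks as units), adjusted by the Benjamini-Hochberg method for 14 tests and called at 0.05, with Newcombe 95% intervals for differences. Tests were checked on simulated data. All coordinates start from 1.

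The members, gene lists and tests were chosen with earlier results of these data known. Named genes are the 12 members of smallest p, members at genes of 6 lists, the strongest members at each BMAL1 list, in promoters and with an E-box, the 3 nearest to and 3 farthest from a control peak, and genes with 3 or more members. Alternatives were other overlap rules, only peaks of −log10 q of at least 10, HIF2α lists of equal length, 5 bins of rank, wider promoters, other motif windows, and lists without peaks in EPAS1 and ARNT, where control BMAL1 peaks of EPAS1 held ranks 1 to 10 of their list. A motif window on the peak midpoint was added after seeing the data.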

Additional observations from a re-analysis of the deposited data

How the results depend on the processing

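Over 15 results, 121 alternative values were computed (113 planned, 8 added after seeing the data), and 102 stayed on the same side of zero and of the threshold. The share of HIF2α peaks without a control peak stayed between 34.0% and 38.8%. The lower overlap with control BMAL1 peaks passed under every alternative run, with differences of −13.1 to −10.5 points from shared peaks and −10.1 to −7.57 from lost peaks (adjusted p up to 0.00317 and 0.0487). All values below are differences in percentage points, and the cause of each change was not tested.

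With only peaks of −log10 q of at least 10, shBMAL1 BMAL1 overlap against lost peaks was 3.16 and the HRE core against shared peaks −6.64, neither passing (Fisher's exact test, adjusted p = 0.137 for both), the GC box against lost peaks was −7.79 and now passed (adjusted p = 0.0487, range over its alternatives 0.0487 to 0.686), and 3 differences changed sign without passing: E-box against shared 1.95, HRE core against lost 0.409 and AP-1 against shared 1.12. Within 5 bins of rank, AP-1 against shared was −7.57 and now passed (Cochran-Mantel-Haenszel test, against the exact test of the report, adjusted p = 0.0466, range 0.0466 to 0.934), and 3 changed sign: promoter against shared −1.29, shBMAL1 BMAL1 against shared 0.969 and GC box against shared −0.0366. The E-box against shared peaks also changed sign with overlap of at least 50% of the shorter peak (0.354), lists of equal length (0.251), a 400 bp window (1.04) and the midpoint window (0.327). Other changes of sign were the promoter share against shared peaks with promoters widened to 2500 bp on both sides (−0.367), the E-box against lost peaks in windows of 100 bp (0.673) and 400 bp (0.957), and AP-1 against lost peaks in the same windows (0.033 and 0.576). None of these passed. The share of members with a motif itself moved with the window: at 100 and 400 bp, 48 and 159 of 393 members held an AP-1 site, 15 and 47 an E-box, 145 and 293 an HRE core and 50 and 110 a GC box.

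No paired analysis was possible because each of the peak lists used here pools the libraries of its group, and for the same reason no library was left out in turn. Reads and coverage were not used here. From the peak lists alone, a member whose region holds control signal just under the threshold cannot be told apart from one without such signal.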

Other observations

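The motifs were not centred on the summits. At shBMAL1-only peaks the HRE core was most frequent from 100 to 50 bp on the lower-coordinate side of the summit (31.3% of peaks per 50 bp), and the same bin held the most in shared (34.1%) and lost peaks (29.3%). The AP-1 site was most frequent in that bin in shared (11.2%) and lost peaks (11.8%), and in members it was equally frequent there and from 150 to 100 bp (9.67% each). From the peak midpoint the HRE core of members was highest from 50 to 0 bp on that side (27.2%). The cause of the offset was not tested.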
